A study of Mus musculus with 21 samples.

Results

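The genes described here are 10 antioxidant enzymes of the mouse hippocampus, namely the superoxide dismutases Sod1 and Sod2, the peroxiredoxins Prdx1 to Prdx6 and the glutathione peroxidases Gpx1 and Gpx4. They were chosen by name as the main enzymes that remove superoxide and peroxides in the cytosol and the mitochondria, and all 10 were found among the 55487 genes of the count table. The study asked what early life stress leaves behind in the adult hippocampal transcriptome. Male wild type C57BL/6 mice either went through maternal separation (MS), in which the whole nest was kept away from the dam for 4 hr a day between postnatal days 10 and 17 with part of the nesting material taken out, or had standard rearing (SR). All mice were sacrificed at 10 weeks of age, and poly-A RNA was sequenced with 1 library per mouse, for 9 MS mice and 12 SR mice. Whole nests were assigned to a condition and litters were balanced to 3 males, but the labels name no nest. Animal numbers form sets of 3 consecutive numbers that each hold a single condition, called A, B and C in MS and D to G in SR here, with mice numbered within a set.

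Superoxide leaks from the respiratory chain and is made by NADPH oxidases, and superoxide dismutases turn it into hydrogen peroxide. Peroxiredoxins and glutathione peroxidases then reduce the peroxide to water, the former mostly with electrons from thioredoxin and the latter with glutathione. Many genes of this defence are induced by the transcription factor NRF2 (gene Nfe2l2), which binds antioxidant response elements in their promoters and is held back by KEAP1, and the brain relies on it heavily because of its high oxygen use.

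One MS library, mouse A2, stood apart and was left out. The study also left out an outlier but does not name it, so A2 may not be that library. On the first principal component, A2 scored 27.1 against scores from -12.2 to 11.9 in the remaining libraries. A2 held 0.693 CPM (counts scaled to the normalised total of a library) of Dsp, a marker of dentate granule cells, against 54.0 to 138 elsewhere. Of the other dentate granule cell markers, Prox1, C1ql2 and Tdo2 were also lowest in A2. Calb1 was not, at 92.2 CPM in A2 against 64.4 to 111 CPM elsewhere. Penk, abundant in striatum, was at 418 CPM in A2 against 13.8 to 135. The 8 MS mice left had total counts of 17276810 to 24052716 and the 12 SR mice 18368519 to 26450808, so that every one of the 10 genes had at least 104 counts in each library used. The summed level of 5 dentate granule cell markers lay between 254 and 465 CPM in MS and between 240 and 483 CPM in SR, so cells of the labelled tissue were represented in both groups.

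Of the 10 enzymes, 8 had a higher fitted level in MS than in SR and 2, Sod2 and Prdx3, a lower one (50.3% of all genes were higher), and no member passed the test (edgeR quasi-likelihood test, adjusted p under 0.05 over 18146 genes). Over all genes, 2 passed, which is 0.011% of those tested. The median log2 fold change of the members was 0.11 and the values ranged from -0.03 for Prdx3 to 0.29 for Prdx4, while the median over all genes was 0.0008. At an unadjusted p under 0.05, 4 members were higher in MS (Sod1, Prdx1, Prdx4 and Prdx5) and 0 were lower. That count was 2 without C1 and 6 without C3 or without E2, and over 39 alternative settings it ran from 2 to 6. With all 8 MS mice, the same held for 6.62% of all genes on the higher side and for 11.5% in either direction. In bulk tissue, fewer cells of a type and less RNA per cell cannot be told apart, which applies to every level given here.

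**Figure D1:**
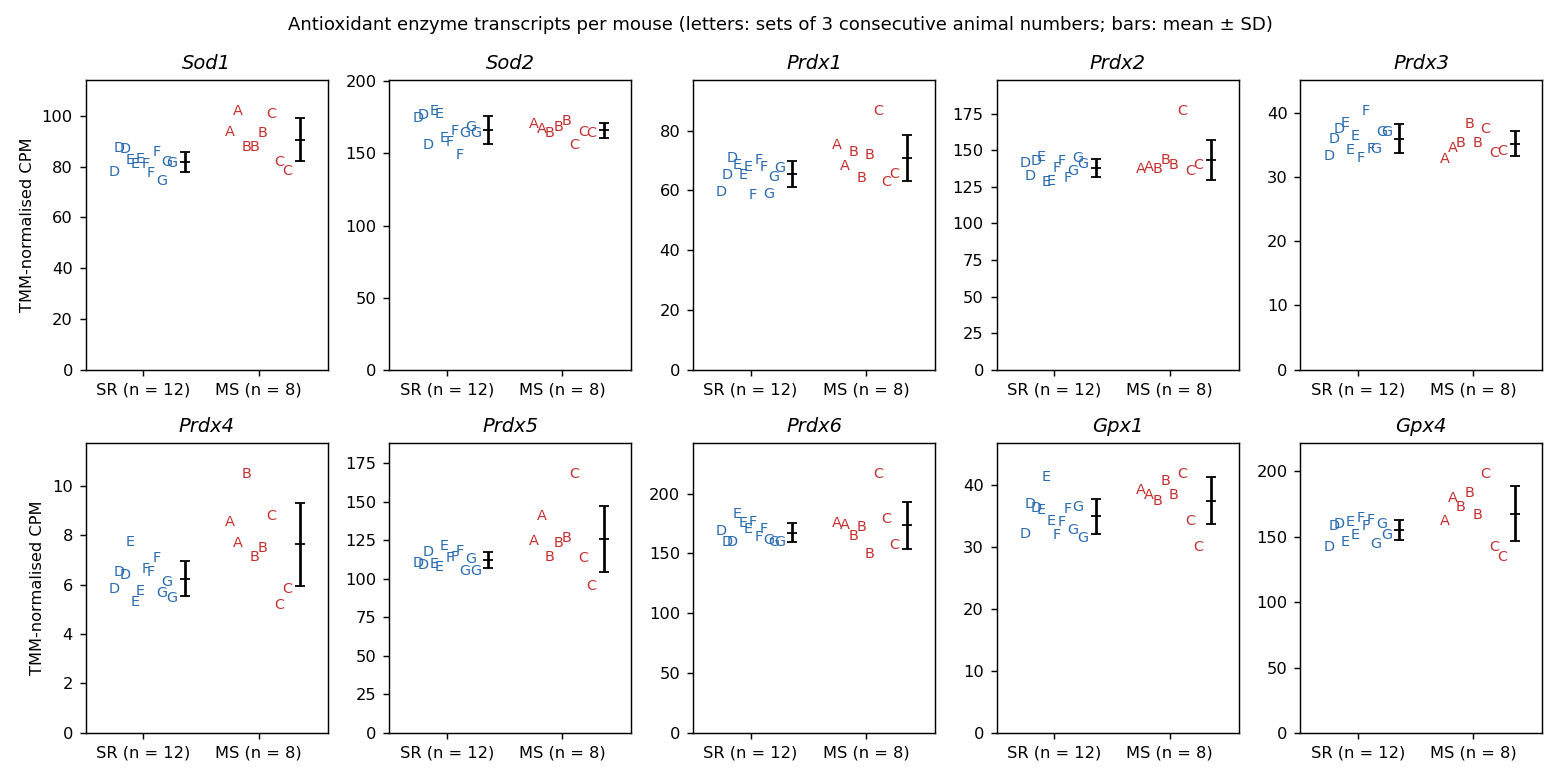
TMM-normalised CPM (vertical axis) of the 10 enzymes in each of 12 SR mice (blue) and 8 MS mice (red), with letters for the set of consecutive animal numbers and bars for the mean ± SD. MS values spread more widely than SR values for 8 of the 10 genes, and the highest Prdx2, Prdx5 and Prdx6 values all belong to 1 mouse of set C.

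RefSeq promoter windows on GRCm38.p6, running from 250 bases before to 50 bases after an annotated start, were held for 9 of the 10 members, with 4 windows for Gpx4 and 12 in all. They are shown here for Sod1 and Prdx1, whose windows hold the core of the antioxidant response element, and for Sod2, the mitochondrial counterpart of Sod1, whose window does not. The core was searched as TGACNNNGC on both strands, and capitals mark its matches.
Sod1, chr16:90220512-90220811, plus strand: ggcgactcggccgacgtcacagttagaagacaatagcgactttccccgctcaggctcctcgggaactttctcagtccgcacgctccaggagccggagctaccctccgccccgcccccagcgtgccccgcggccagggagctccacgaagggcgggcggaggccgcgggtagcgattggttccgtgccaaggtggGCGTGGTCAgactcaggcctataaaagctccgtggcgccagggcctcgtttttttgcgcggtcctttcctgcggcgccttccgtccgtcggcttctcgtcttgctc
Prdx1, chr4:116685349-116685648, plus strand: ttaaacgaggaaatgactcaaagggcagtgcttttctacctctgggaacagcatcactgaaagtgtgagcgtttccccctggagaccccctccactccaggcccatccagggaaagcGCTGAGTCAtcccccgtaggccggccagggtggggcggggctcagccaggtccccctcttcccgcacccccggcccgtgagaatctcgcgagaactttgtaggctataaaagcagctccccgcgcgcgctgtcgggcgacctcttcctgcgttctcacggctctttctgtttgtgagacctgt
Sod2, chr17:13007589-13007888, plus strand: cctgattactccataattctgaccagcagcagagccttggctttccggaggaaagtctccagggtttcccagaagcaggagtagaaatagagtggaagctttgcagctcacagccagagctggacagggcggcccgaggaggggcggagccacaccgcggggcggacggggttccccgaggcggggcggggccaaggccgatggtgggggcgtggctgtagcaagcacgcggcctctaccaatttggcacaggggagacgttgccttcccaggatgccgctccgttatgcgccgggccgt
Both matches read on the opposite strand, as TGACCACGC in Sod1 and TGACTCAGC in Prdx1. Their leftmost printed base lay 56 bases before the start in Sod1 and 133 bases before it in Prdx1. The core was found in 2 of the 12 member windows and in 12.4% of 32851 windows of the same length. GGGCGG, the core of the GC box bound by SP1-type factors, was found on either strand in 11 of the 12 windows and in 35.7% of all windows, and none of its matches overlapped those of the first motif. Windows of Gpx4 overlap in part, so the same GC box can be counted in more than a single window. A match describes letters in a window, not a bound site.

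Among the superoxide dismutases, Sod1 encodes the copper and zinc enzyme of the cytosol (ENSMUSG00000022982, chr16:90220754-90226329, plus strand). Its lowest, median and highest levels were 78.1, 90.5 and 102 CPM in the 8 MS mice and 74.2, 81.7 and 87.1 CPM in the 12 SR mice. All 5 MS mice of sets A and B, and C1, lay above every SR mouse, while C2 and C3 lay within the SR range. Sod1 averaged 90.6 ± 8.41 CPM (SD, n = 8) in MS and 81.7 ± 3.87 CPM (SD, n = 12) in SR. This made a log2 fold change of 0.15 with SE 0.0445 and a 95% interval of 0.06 to 0.24. With an adjusted p of 0.191 (edgeR) it did not pass the test, and it was the member with the lowest p.

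Sod2 encodes the manganese enzyme of the mitochondrial matrix (ENSMUSG00000006818, chr17:13006846-13040063, plus strand). It spanned 156, 166 and 173 CPM (lowest, median, highest) in MS and 149, 165 and 180 CPM in SR. Every MS mouse lay inside the SR range, and C1, which was at or near the top for most other members, was the lowest MS mouse here. The means were 166 ± 5.15 CPM (SD, n = 8) and 166 ± 9.55 CPM (SD, n = 12), and the log2 fold change of -0.0018 had a 95% interval of -0.07 to 0.07 (edgeR adjusted p = 0.992).

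Prdx1 and Prdx2 encode the abundant cytosolic peroxiredoxins. Prdx1 (ENSMUSG00000028691, chr4:116685544-116700822, plus strand) measured 62.7, 70.0 and 86.6 CPM at its lowest, median and highest in MS and 58.3, 66.4 and 70.7 CPM in SR. A1, B1, B3 and C1 exceeded all SR mice, while the other 4 MS mice fell among them. Its means of 70.9 ± 7.71 CPM (SD, n = 8) and 65.3 ± 4.33 CPM (SD, n = 12) gave a log2 fold change of 0.12 (SE 0.0527, 95% interval 0.01 to 0.23, edgeR adjusted p = 0.386). Without C1 the log2 fold change was 0.07.

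Prdx2 (ENSMUSG00000005161, chr8:84969587-84974834, plus strand), the peroxiredoxin typical of neurons and red blood cells, lay at 136, 139 and 177 CPM in MS and 128, 139 and 146 CPM in SR. C1 was the sole MS mouse above the SR range, at 177 CPM, and the other 7 lay between 136 and 143 CPM. The means were 144 ± 13.7 CPM (SD, n = 8) and 138 ± 6.21 CPM (SD, n = 12), with a log2 fold change of 0.06 (SE 0.0432, 95% interval -0.03 to 0.15, edgeR adjusted p = 0.617). It was 0.01 without C1.

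Prdx3, the peroxiredoxin confined to mitochondria (ENSMUSG00000024997, chr19:60864051-60874556, minus strand), had 32.8, 34.9 and 38.4 CPM in MS and 32.9, 36.2 and 40.3 CPM in SR. The groups overlapped almost entirely, with A1 just under the lowest SR mouse. Its means were 35.2 ± 1.88 CPM (SD, n = 8) and 36 ± 2.23 CPM (SD, n = 12), and its log2 fold change was -0.03 (SE 0.0413, 95% interval -0.12 to 0.05, edgeR adjusted p = 0.824), which was -0.01 without F2 and -0.05 without B2.

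Prdx4 encodes the peroxiredoxin of the endoplasmic reticulum, where it uses peroxide to drive disulfide formation (ENSMUSG00000025289, chrX:155323918-155340754, minus strand). It was the lowest member, at 5.17, 7.56 and 10.5 CPM in MS and 5.28, 6.25 and 7.72 CPM in SR, and rested on 104 to 195 counts per library. B1, C1 and A1 lay above all SR mice and C2 below all of them. The means of 7.63 ± 1.68 CPM (SD, n = 8) and 6.24 ± 0.707 CPM (SD, n = 12) made the largest log2 fold change of the members, 0.29 (SE 0.104, 95% interval 0.07 to 0.50, edgeR adjusted p = 0.289). The log2 fold change was 0.21 without B1 and 0.35 without C2.

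Prdx5, found in mitochondria, peroxisomes and cytosol (ENSMUSG00000024953, chr19:6906697-6910106, minus strand), showed the widest range relative to SR. It lay at 95.3, 124 and 168 CPM in MS against 105, 112 and 121 CPM in SR. A1, A3, B2, B3 and C1 were above every SR mouse and C3 was below every SR mouse, so that both extremes of the 20 mice came from set C. Its means were 126 ± 21.5 CPM (SD, n = 8) and 112 ± 5.12 CPM (SD, n = 12), with a log2 fold change of 0.17 (SE 0.0670, 95% interval 0.03 to 0.31, edgeR adjusted p = 0.342). Leaving out C1 alone brought it to 0.10.

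Prdx6 works through a single catalytic cysteine with glutathione and also has phospholipase activity (ENSMUSG00000026701, chr1:161240112-161251219, minus strand). Its levels were 150, 173 and 216 CPM in MS and 159, 166 and 183 CPM in SR. C1 stood above all other mice, and B3 and C3 stood under the SR range. The means of 173 ± 19.9 CPM (SD, n = 8) and 167 ± 8.03 CPM (SD, n = 12) gave a log2 fold change of 0.05 (SE 0.0495, 95% interval -0.05 to 0.15, edgeR adjusted p = 0.731), and without C1 the value was -7.11e-05.

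Both glutathione peroxidases of the group are selenoproteins. Gpx1 reduces soluble peroxides in cytosol and mitochondria (ENSMUSG00000063856, chr9:108338903-108340343, plus strand) and measured 30.1, 38.4 and 41.8 CPM in MS and 31.5, 35.2 and 41.4 CPM in SR. C1 was just above and C3 just under the SR range, and the other 6 MS mice lay inside it. The top of that range was E2 alone, at 41.4 CPM, and the other SR mice reached at most 36.9 CPM. A1, A3, B1, B2 and B3, at 37.4 to 40.7 CPM, lay above every SR mouse but E2. Gpx1 averaged 37.5 ± 3.76 CPM (SD, n = 8) in MS and 35 ± 2.81 CPM (SD, n = 12) in SR (log2 fold change 0.10, SE 0.0563, 95% interval -0.02 to 0.22, edgeR adjusted p = 0.513). The log2 fold change was 0.12 without E2 and 0.08 without C1.

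Gpx4 reduces lipid hydroperoxides within membranes and thereby guards against ferroptosis (ENSMUSG00000075706, chr10:80047166-80056439, plus strand). It reached 134, 170 and 198 CPM in MS and 142, 158 and 164 CPM in SR. A3, B1, B2, B3 and C1 lay above all SR mice and C3 below them. Its means of 167 ± 21 CPM (SD, n = 8) and 155 ± 7.65 CPM (SD, n = 12) gave a log2 fold change of 0.11 (SE 0.0547, 95% interval -0.00 to 0.23, edgeR adjusted p = 0.436), against 0.07 without C1.

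**Figure D2:**
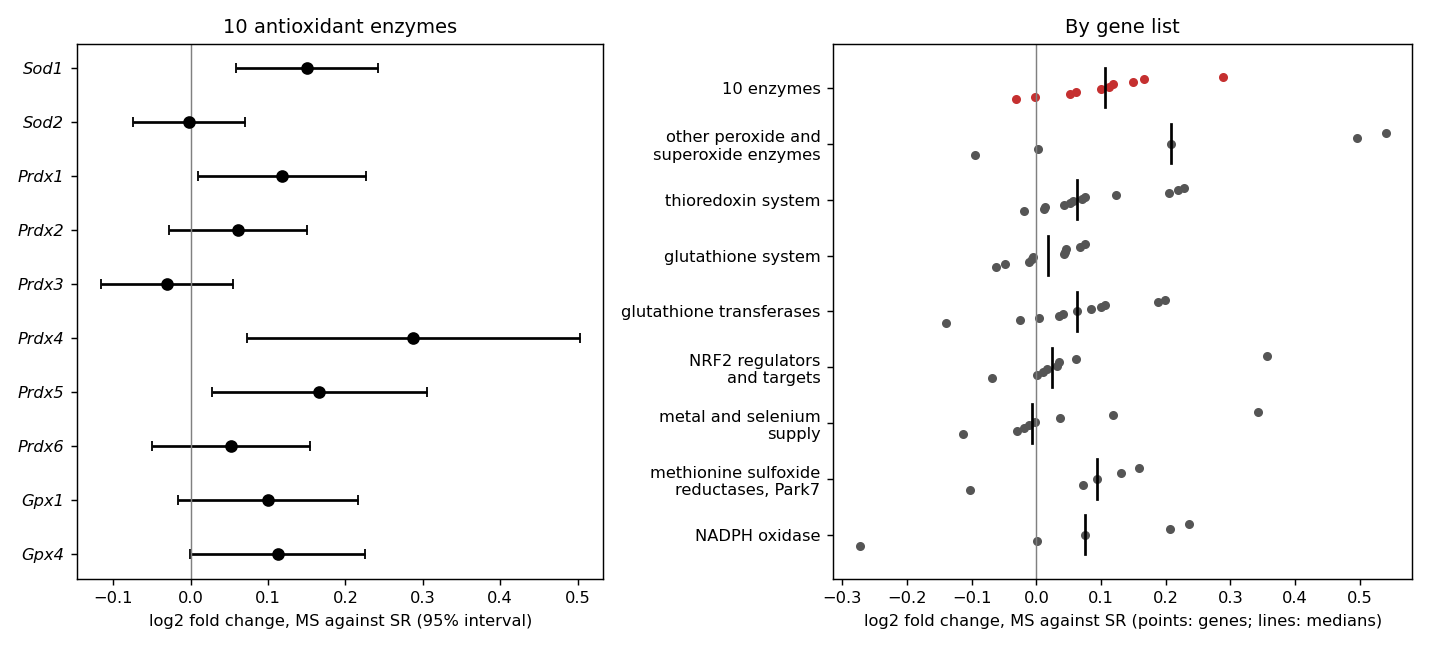
Log2 fold change of MS against SR (horizontal axes). Left, the 10 enzymes with 95% intervals from edgeR; right, each tested gene of the members and of 8 other antioxidant lists as a point, with the list's median as a line. The intervals of Sod1, Prdx1, Prdx4 and Prdx5 lie above 0, and the members' median of 0.11 lies between list medians of -0.01 and 0.21.

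Scaled to the length of the annotated exons, Gpx4 had the highest level of the members in SR mice, at 89.8 ± 4.44 CPM per kilobase (SD, n = 12). Prdx5 followed at 52.4 ± 2.39 and Prdx2 at 45.1 ± 2.04 CPM per kilobase, then Prdx6 at 34.8 ± 1.67. Prdx3, Gpx1, Prdx1 and Sod1 formed a group between 20.6 and 24.4 CPM per kilobase. Sod2 lay at 16.6 ± 0.954 and Prdx4 lowest at 2.96 ± 0.336 CPM per kilobase. Within the SR mice, neighbours in this order stood further apart than the larger of their SDs except for Prdx3 beside Gpx1 and Prdx1 beside Sod1. The values depend on the exon models, since the exons of Sod2 span 10008 bases when all annotated isoforms are joined.

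The SD of log2 CPM was larger in MS than in SR for 8 of the 10 members, with Sod2 and Prdx3 as the exceptions, and for 67.3% of all genes, a share near that of the members. For Prdx5 it was 0.239 in MS and 0.0655 in SR, and for Gpx4 0.186 and 0.0722. The mice of set C, singled out here after their values were seen, lay at both ends of the MS range. C1 was the highest MS mouse for 6 members and above all SR mice for 8, with Prdx5 0.58 and Prdx6 0.37 above the SR mean on the log2 scale. C3 was the lowest MS mouse for 4 members (Sod1, Prdx5, Gpx1 and Gpx4) and C2 for 3 (Prdx1, Prdx2 and Prdx4), and C3 lay under the SR median for 9 members. The shares of all genes that go with these counts for C1, C2 and C3 were not determined. Whether the counts are particular to these enzymes was therefore not tested. Without C1, the SD stayed larger in MS for 7 members (58.7% of all genes), and without set C for 5 (44.5% of all genes). The mean log2 CPM of the 10 members ran from 6.03 over a median of 6.24 to 6.44 in MS and from 6.04 over 6.14 to 6.20 in SR. The MS range thus covered the SR range and reached beyond it at the upper end, and 6 of 8 MS mice lay above the SR median.

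**Figure D3:**
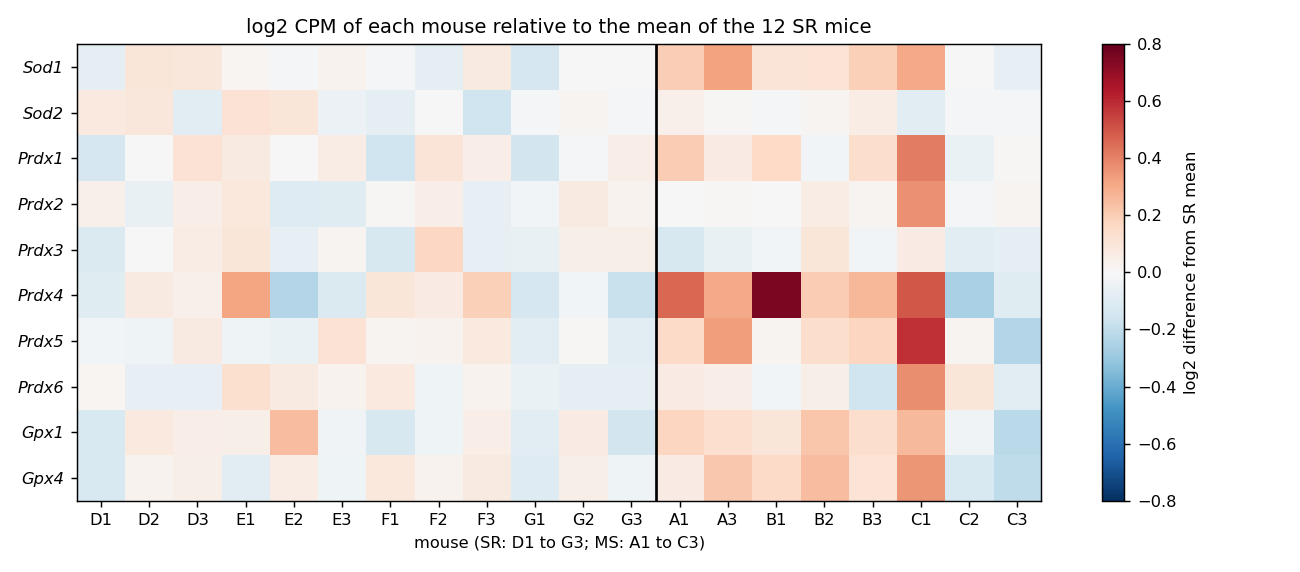
Log2 CPM of each enzyme (rows) in each of the 20 mice (columns, SR left of the black line and MS right) relative to the mean of the 12 SR mice, with red for higher and blue for lower. C1 is red for 9 genes and pale blue for Sod2, while C2 and C3 of the same set are pale or blue for most genes.

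Of 39 alternative settings, leaving out set C was the only one under which members passed the test, and it left 5 MS mice of 2 sets. Sod1 (log2 fold change 0.18, edgeR adjusted p = 0.0212), Prdx4 (0.40, 0.0352), Gpx4 (0.16, 0.0403) and Prdx5 (0.17, 0.0451) then passed, all higher in MS. Under that fit 340 of 18561 genes passed, 1.83% of those tested. In these 5 MS mice, Sod1 averaged 92.8 ± 5.80 CPM (SD, n = 5) and Gpx4 173 ± 8.91 CPM (SD, n = 5). With C2 alone left out, 109 genes passed (0.597%) and the lowest adjusted p of a member was 0.0765 (edgeR), and with C3 alone left out, 109 genes passed (0.596%) and that p was 0.0543. No member passed with any single library left out, nor with DESeq2, by which 134 of 13871 genes passed (0.966%). With all 21 libraries, A2 included, no member passed, the median log2 fold change was 0.13, and Gpx1 moved from 0.10 to 0.18, with A2 at 56.6 CPM.

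The animal numbers fall into a low range, with sets A, B, D, E and F, and a high range, with sets C and G. The separation effect was tested for a difference between the ranges, and no member and 0 of 18146 genes passed (edgeR interaction, adjusted p under 0.05), while 8.67% of genes had an unadjusted p under 0.05. Prdx6 had a log2 fold change of -0.02 in the low range and 0.20 in the high range, a difference of 0.22 (SE 0.100, edgeR adjusted p = 0.548). Of the other members, Sod1 had 0.17 and 0.14 in the low and the high range, Prdx1 0.10 and 0.17, Prdx4 0.36 and 0.20, Prdx5 0.15 and 0.22, and Gpx4 0.15 and 0.06. Sod1, Prdx1, Prdx2, Prdx4, Prdx5, Gpx1 and Gpx4 were higher in MS within both ranges, and Prdx3 was lower in both, with the high range resting on the single MS set C and the single SR set G. For all genes named as higher, C1 was the highest mouse of set C. C2 and C3 lay under the set G mean for Prdx2 (135.9 and 139.9 against 140.3 CPM) and Gpx4 (142 and 134 against 152 CPM). For the others named as higher, either C2 or C3 lay above that mean.

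**Figure D4:**
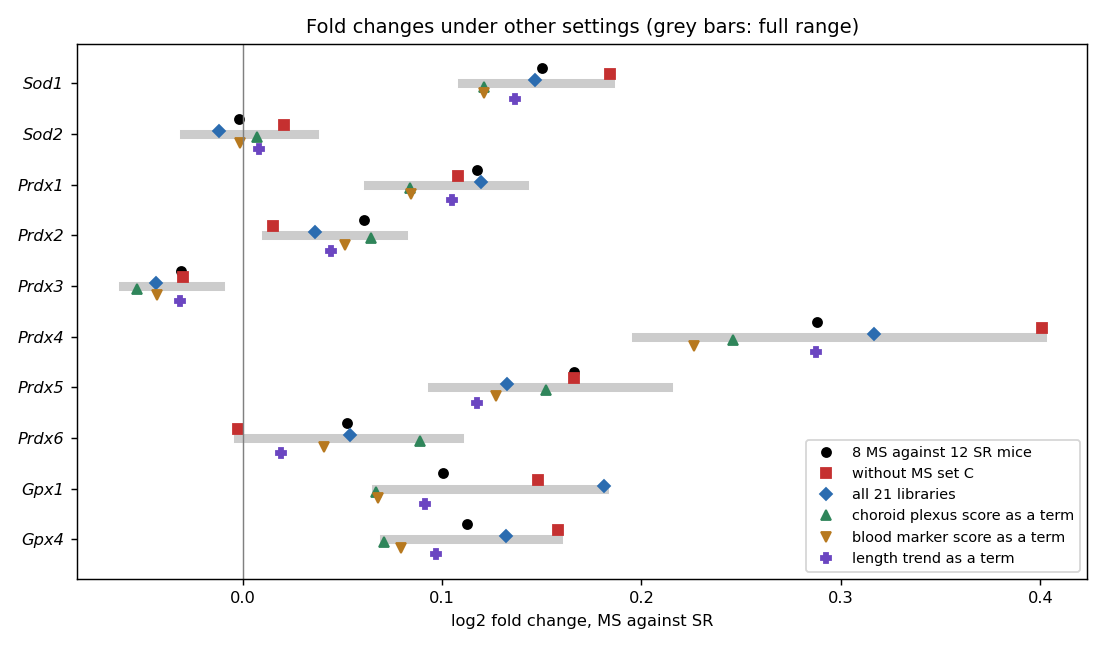
Log2 fold change of MS against SR (horizontal axis) for each enzyme in the comparison of 8 MS with 12 SR mice (black) and under 5 other settings (coloured symbols), with grey bars for the full range over the settings tried. Sod2 and Prdx6 reach both sides of 0, and the other 8 enzymes keep their sign.

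Once the group means were taken off, most members varied together over the 20 mice. Of 45 pairs of members, 38 had a Pearson r of log2 CPM above 0, with a median of 0.39 and values from -0.32 (Sod2 with Prdx5) to 0.81 (Sod1 with Prdx5). Over the 12 SR mice alone, 31 pairs were above 0 and the median was 0.13. Against the mean of the other 9 members, Gpx4 had r = 0.79, Prdx5 0.78 and Sod1 0.76, while Prdx3 had 0.39 and Sod2 -0.19. Prdx3 and Sod2 thus stood at the low end of this order. Prdx5 and Gpx1, which are also found in mitochondria, did not, with 0.78 and 0.68. All members share library and depth within a mouse, and these values are descriptions over 20 points.

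Of 10342 genes with a mean of at least 10 CPM, the 5 closest to the mean of the members over the 20 mice were Slc3a2 (r = 0.88), the heavy chain of amino acid transporters such as the cystine importer, Sec62 (0.88), a part of the protein import machinery of the endoplasmic reticulum, Rpl18 (0.87), a ribosomal protein, Hmgn2 (0.87), a nucleosome-binding protein, and Arl2 (0.85), a small GTPase. Over the SR mice alone their r was 0.80, 0.56, 0.34, 0.70 and 0.69. Their log2 fold changes were 0.07, 0.0003, 0.21, 0.10 and 0.04 in the same order.

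Marker levels of some other cells moved with the members, blood markers most. The summed level of 5 blood markers, 4 haemoglobin genes and Alas2, had an r of 0.69 with the members' mean over the 20 mice after the group means were taken off. It ranged from 138 to 450 CPM in MS (median 325) and from 144 to 426 CPM in SR (median 248), with C1 highest and C3 lowest in MS, and none of the 5 was at 0 in any library. Of these markers, 4 of 5 were higher in MS and 0 of 5 had an unadjusted p under 0.05. With the blood score as a term, no member and 1 gene in all passed (0.00551% of those tested), and the members' median log2 fold change was 0.07, down from 0.11. The part of blood in these levels was not tested further.

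The 6 choroid plexus markers, led by Ttr, summed to between 52.2 and 4160 CPM in MS (median 3285) and between 28.2 and 4483 CPM in SR (median 829). All 6 were higher in MS, 0 with an unadjusted p under 0.05, and none was at 0 in a library. Their summed level had an r of 0.29 with the members' mean, and with the choroid plexus score as a term no member passed and the median log2 fold change of the members was 0.08. All 6 neuron markers were lower in MS, at 4530 to 5432 CPM (median 4993) against 5087 to 5599 CPM (median 5355), and Snap25 (log2 fold change -0.11) and Syt1 (-0.13) had an unadjusted p under 0.05. Their sum had an r of -0.30 with the members' mean, and the members' median was 0.10 with the neuron score as a term. For the 6 oligodendrocyte markers that r was 0.49, with 3814 to 7484 CPM in MS and 4684 to 7125 CPM in SR. The 7 astrocyte, 6 microglia, 5 endothelial and 6 striatum markers had r of -0.20, 0.15, 0.05 and 0.27, and the 5 dentate granule cell markers -0.11. The striatum markers summed to 67.1 to 600 CPM in MS (median 106), with B1 highest, and to 71.6 to 368 CPM in SR. The part of cell makeup in the members' values was otherwise not tested.

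How far the counts of a library lean towards long transcripts was measured as the correlation of log2 CPM with log2 exon length across its genes. It lay between 0.45 and 0.49 in MS and between 0.47 and 0.49 in SR. C1 had the lowest value of all, and C3 the second highest in MS. After the group means were taken off, Prdx6 and Prdx5 had an r of -0.74 and -0.73 with this measure over the 20 mice, and the mean of the members -0.41. With this measure as a term no member passed, and the median log2 fold change of the members was 0.09. That of Prdx6 was then 0.02 instead of 0.05 and that of Prdx5 0.12 instead of 0.17, while Prdx4 stayed at 0.29.

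Several members have near copies or neighbours whose reads may mix with theirs. Gpx4-ps2, a transcribed pseudogene, is 99.7% identical to Gpx4 over 762 bases and had 17.2 ± 2.69 CPM (SD, n = 8) in MS and 17.9 ± 1.06 CPM (SD, n = 12) in SR, with a log2 fold change of -0.06 where Gpx4 had 0.11. The pseudogenes Gm21399 and Gm7204 of Prdx1 and Gm8566 of Sod1 are 98.3%, 97.5% and 97.8% identical over 597, 597 and 465 bases and had at most 6, 3 and 5 counts in a library. An isoform of Sod2 shares 3110 bases at 98.3% identity with Rps6ka2 (75.5 CPM in MS and 72.2 CPM in SR, log2 fold change 0.06). On the opposite strand, annotated gene spans, introns included, overlap between Sod1 and Scaf4 (650 bases, Scaf4 log2 fold change -0.11) and Prdx2 and Junb (351 bases, 0.04). The same holds for Prdx2 and Rnaseh2a (181 bases, 0.04), and Prdx5 and Trmt112 (409 bases, 0.18). Whether exons overlap there was not examined. The sources used here do not state whether reads were counted by strand, so values of these members are uncertain to that extent.

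Beyond the 10 members, 67 genes of 8 antioxidant lists were looked up, of which 64 passed the filter on low counts (Gpx2, Mgst2 and Nox4 did not). None passed the test (edgeR, adjusted p under 0.05), 47 were higher and 17 lower in MS, and their median log2 fold change was 0.04. At an unadjusted p under 0.05 there were 6 higher and 1 lower, against 6.62% of all genes on the higher side and 50.3% of all genes above 0.

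Among the other enzymes that act on superoxide and peroxides, 4 of 5 tested were higher in MS and the median was 0.21. Gpx8, a glutathione peroxidase of the endoplasmic reticulum, had 5.93 ± 2.26 CPM (SD, n = 8) in MS and 4.05 ± 1.83 CPM (SD, n = 12) in SR (log2 fold change 0.54, SE 0.259, edgeR adjusted p = 0.433), and Gpx7 had -0.09. In the list of the thioredoxin system, 11 of 12 genes were higher with a median of 0.06. Thioredoxin hands electrons to the peroxiredoxins, but the list also holds genes that do not. Among these are Sesn1 to Sesn3 and Txnip, an inhibitor of thioredoxin, at 0.22, so the count does not measure electron supply. Nxn, encoding nucleoredoxin, had 18.1 ± 3.69 CPM (SD, n = 8) and 15.5 ± 2.71 CPM (SD, n = 12), a log2 fold change of 0.23, and Srxn1, encoding the sulfiredoxin that repairs overoxidised peroxiredoxins, had -0.02.

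In the glutathione system, 5 genes were higher and 5 lower with a median of 0.02, from Glrx at -0.06 to Glrx3 at 0.08. Of the glutathione transferases, 9 were higher and 2 lower (median 0.06), with Mgst1 at 0.20. Gstz1, which also acts in tyrosine breakdown, was at the other end, at 31.0 ± 2.35 CPM (SD, n = 8) in MS and 34.2 ± 3.10 CPM (SD, n = 12) in SR (log2 fold change -0.14, edgeR adjusted p = 0.332). Regulators and targets of NRF2 had 7 higher and 1 lower (median 0.02), from Bach1, a repressor at antioxidant response elements, at -0.07 to Nqo1, a quinone reductase, at 0.36. Nqo1 lay at 3.77 ± 1.24 CPM (SD, n = 8) and 2.92 ± 0.933 CPM (SD, n = 12) and had an edgeR adjusted p of 0.501, and Nfe2l2 itself had a log2 fold change of 0.06 and Keap1 of 0.01.

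Genes that supply copper or selenium to these enzymes had 3 higher and 5 lower and a median of -0.01. Atox1, a copper chaperone of the cytosol, had the lowest adjusted p of the 64 genes, 0.148 (edgeR), with 12.4 ± 2.08 CPM (SD, n = 8) in MS and 9.76 ± 1.16 CPM (SD, n = 12) in SR (log2 fold change 0.34, SE 0.0894), and Ccs, the copper chaperone of Sod1, had 0.12. Eefsec, the elongation factor for selenocysteine, had -0.11. Methionine sulfoxide reductases with Park7 had 4 higher and 1 lower (median 0.09), from Msra at -0.10 to Msrb3 at 0.16, and NADPH oxidase subunits also had 4 higher and 1 lower (median 0.07), from Cybb at -0.27 to Ncf4 at 0.24, both under 1 CPM. Atox1 passed the test under DESeq2 and without C2, Atox1 and Txn1, encoding thioredoxin, without C3, and Gpx3, Txn1 and Atox1 without set C.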

How the data were processed

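Poly-A RNA of the hippocampus was sequenced as paired-end reads, with 1 library per mouse, in 9 MS and 12 SR mice, all on 1 lane. The authors deposited raw counts per Ensembl gene, without normalisation or a filter; the submitters' processing notes name STAR 2.7.3a, featureCounts and GRCm38. Samples were grouped by their labels.

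The members and all gene lists were chosen with earlier results of these data known. The library farthest from the others on the first principal component (500 most variable genes, variance-stabilised with DESeq2 1.42.0) was left out. Counts were normalised by TMM, filtered with filterByExpr (minimum count 10) and tested with the quasi-likelihood test of edgeR 4.0.16 (R 4.3.3). P-values of 18146 genes were adjusted by the Benjamini-Hochberg method. Log2 fold changes are MS against SR, and log2 CPM used a prior count of 2. Total counts of the libraries used ran from 17276810 to 26450808. Mice were treated as independent although nests were assigned whole, so p-values measure the spread between mice. No 2 libraries of a group agreed within counting error, the lowest chi-square over its degrees of freedom being 3.34.

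Named genes are the 10 members, the highest and the lowest log2 fold change of each other list, any gene called, the 5 genes closest to the members' mean, genes of shared sequence and markers that moved with a result. Shared sequence was found with BLAST+ 2.17.0 (at least 97% identity over 400 bases). Gene positions are of GENCODE M21. Alternatives were other libraries, tests (DESeq2, limma 3.58.1), scalings, filters, terms and sets left out. Computations were tested on simulated data.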

Additional observations from a re-analysis of the deposited data

Results flagged for a closer look

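Prdx2 stood at 177 CPM in MS mouse C1, far from the other 7 MS mice, which lay between 136 and 143 CPM. Prdx6 stood at 216 CPM in the same mouse, where the other 7 MS mice had 150 to 179 CPM. Gpx1 stood at 56.6 CPM in the left-out MS mouse A2, apart from the 30.1 to 41.8 CPM of the other 8 MS mice. Each was singled out because its gap to the nearest mouse was wide for the range of its group by Dixon's 95% criterion, which chance meets in about 1 in 20 groups. The mice named above are all from MS, but a wide gap was not confined to MS. In SR, E2 also stood apart for Gpx1, at 41.4 CPM, while the other SR mice lay between 31.5 and 36.9 CPM.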

How the results depend on the processing

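Over 39 alternatives, 38 called 0 members, 8 or 9 members were higher in MS, and their median log2 fold change stayed between 0.07 and 0.13. The number of all genes called was 2 and became 134 with DESeq2, 1 with all 21 libraries, without the filter or with the blood score as a term, and 0 with the choroid plexus or the neuron score as a term, with counts summed within sets and with limma-voom and the set as a block. With libraries or sets left out it ran from 0 to 340. Members called ran from 0 to 4 when libraries or sets were left out, with 4 only without set C. Other antioxidant genes called were 0, and 1 with DESeq2, and ran from 0 to 3 with libraries or sets left out. At -0.0018, the log2 fold change of Sod2 turned to 0.0019 with the animal number range fitted as a term, 0.0084 with the length trend, 0.0071 with the choroid plexus score, 0.0356 with the neuron score, 0.0028 with summed sets and 4.18e-05 with limma-voom, and it ran from -0.0295 to 0.0208 when libraries or sets were left out. Prdx6, at 0.05, then ran from -0.0022 to 0.105 and was below 0 without set C and without C1 (-7.11e-05). The causes were not tested. The blood and neuron scores were chosen as terms after seeing the data. No paired analysis was possible because the animal numbers in the labels are unique to a mouse. Depth limits Prdx4 most, at 104 to 195 counts per library, and the labels name no nest.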

Other observations

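The log2 ratios of 2 pairs of members were looked at after the values had been seen, and no test was made. The log2 ratio of Sod1 to Sod2 was -0.88 ± 0.146 (SD, n = 8) in MS, from -1.07 to -0.63, and -1.02 ± 0.119 (SD, n = 12) in SR, from -1.17 to -0.79. The log2 ratio of Prdx5 to Prdx3 was 1.82 ± 0.215 (SD, n = 8) after separation against 1.64 ± 0.103 (SD, n = 12) after standard rearing. The groups overlapped in both ratios. In mouse A2, which was left out, Sod1, Prdx1, Prdx4, Gpx1 and Gpx4 lay above the SR range, at 89.0, 71.8, 8.94, 56.6 and 188 CPM. Its Prdx2, Prdx3 and Prdx5 were under the SR range, at 122, 32.6 and 99.7 CPM. Its Sod2 and Prdx6 were within that range, at 156 and 176 CPM.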
